A study of Mus musculus with 24 samples.

Results

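The genes described here are 10 members of the circadian clock, read in MLO-Y4 cells, a mouse line with features of osteocytes: Clock, Arntl (also written Bmal1), Per1, Per2, Per3, Cry1, Cry2, Nr1d1, Dbp and Bhlhe40. They were chosen by name. A gene counted as found where exactly 1 gene symbol was annotated to a row of the deposited table, and its brightest such row was taken. Each of the 10 had exactly 1 such row, among 19938 genes named in this way in all. All 10 reached the 40th percentile of every one of the 24 arrays, so none was lost to the filter on dim rows that left 14489 genes for testing.

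The study asked how an environment of strong magnetic field and altered gravity changes gene expression in these cells, and what blocking hemichannels made of connexin 43 changes in that response. There were 8 groups of 3 arrays. In the E2 arm, cells were given Cx43(E2), the hemichannel-blocking antibody (28 µg/ml), and were then kept at the positions labelled 1g, 2g or μg (ug here) of the platform, or in an incubator (C). The 4 groups of the IgG arm had the same environments after an irrelevant rabbit IgG. Every group therefore received an antibody, for 30 min at 37 °C, before the environments were parted, and no group without antibody is analysed here. The time on the platform and the hour of harvest are not given in the labels. The titles number the replicates of each group 1 to 3, and the 4 arrays of 1 arm with the same number form what is called a set: E2 3, for example, holds the E2 arrays numbered 3 at 1g, 2g, ug and C. No label says what a number shares, or that replicates were separate cultures. The p-values therefore measure only the spread between these arrays, and the number of arrays limits the precision.

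The clock of a mammalian cell is a feedback loop of transcription. The proteins CLOCK and BMAL1 bind DNA as a pair and switch on the Per and Cry genes, whose products return to the nucleus and shut that pair off. A second loop runs through Nr1d1, which encodes REV-ERBα, a repressor of Arntl. Outputs of the loop include Dbp, a transcription factor that acts at D-box sites, and Bhlhe40 (DEC1), a repressor that competes for the E-boxes bound by CLOCK and BMAL1. In tissues with a running clock, Arntl reaches its peak at about the opposite time of day to Nr1d1, Dbp and the Per genes. Cells in culture are brought into a shared rhythm by a change of medium, by serum or by glucocorticoids, and drift apart afterwards.

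Motifs of the kinds bound by clock proteins were sought in the promoters of the members. They are shown as background, and no result below rests on them. RefSeq windows of 300 bases (build GRCm38.p6, from 250 bases before to 50 after a start) were found for 8 of the 10 members, 12 windows in all, and for neither Per2 nor Bhlhe40. Both strands were searched for the E-box CACGTG, its variant CACGTT, the D-box TTATGNAA and the core AGTAGGTNA of the element bound by ROR and REV-ERB proteins. Of 32851 windows of this length, 7.15% held CACGTG, 4.68% CACGTT, 3.38% TTATGNAA and 0.59% AGTAGGTNA. At least 1 of the 4 was found in the windows of 6 members. These shares are per window and per motif. The share of all genes with at least 1 of the 4 was not counted, so this count of members has no background. Those of Clock and Dbp held none of these letters. Stretches are given 5′ to 3′ on the strand of the gene, with the matched letters in capitals and with positions counted from the start, which is position 1. An AACGTG in capitals is CACGTT on the opposite strand.
The Arntl stretches lie on the plus strand at chr7:113207441-113207520 and chr7:113207526-113207555, the Per1 stretch on the plus strand at chr11:69098759-69098838, and the others on the minus strand, for Per3 at chr4:151044791-151044890, for Cry1 at chr10:85185080-85185159, for Cry2 at chr2:92434190-92434269 and for Nr1d1 at chr11:98775378-98775445.
Arntl, around the start: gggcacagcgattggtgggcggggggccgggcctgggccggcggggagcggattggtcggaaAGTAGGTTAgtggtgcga
Arntl, after the start: agggaaggcagaaAGTAGGTCAgggacgga
Per1: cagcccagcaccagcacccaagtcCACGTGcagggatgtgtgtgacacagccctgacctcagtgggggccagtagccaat
Per3: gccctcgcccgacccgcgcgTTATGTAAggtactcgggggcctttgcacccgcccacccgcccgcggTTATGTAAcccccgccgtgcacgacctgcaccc
Cry1: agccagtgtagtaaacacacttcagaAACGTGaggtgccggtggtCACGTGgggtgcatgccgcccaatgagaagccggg
Cry2: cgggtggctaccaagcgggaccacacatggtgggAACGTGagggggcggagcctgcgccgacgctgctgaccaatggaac
Nr1d1: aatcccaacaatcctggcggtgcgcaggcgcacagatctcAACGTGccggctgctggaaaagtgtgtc
Arntl held the REV-ERB and ROR core on its own strand, from position -8 to 1 and again from 29 to 37. Per1 held an E-box from -166 to -161 and, outside the stretch shown, a D-box TTATGCAA from -24 to -17. Per3 held 2 D-boxes, from -205 to -198 and from -158 to -151. Cry1 held both an E-box, from -60 to -55, and the variant, from -79 to -74, while Cry2 and Nr1d1 held the variant, from -166 to -161 and from -28 to -23. A match describes the sequence and shows neither binding nor use of a site in these cells.

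The values are log2 intensities of an Affymetrix array, 1 per probe set, and probe sets differ in how brightly they report, so levels are compared between arrays and not between genes. Array medians lay between 6.48 and 6.65, and the median gene tested had a mean level of 8.41. Of 8 osteocyte markers, Gja1 (connexin 43, 11.37 to 12) and Pdpn (podoplanin, 12.5 to 12.84) were bright on all arrays, and Cd44 (8.87 to 9.28), Sost (6.82 to 7.23) and Fgf23 (6.76 to 7.3) also reached the 40th percentile on all 24. Dmp1, Phex and Mepe, matrix genes of maturing osteocytes, lay between 4.35 and 4.88 and below the 40th percentile on all 24 arrays. Arrays of the same set deviated together across genes (r between 0.195 and 0.812 in all 36 pairs), so the set was used as a block where stated. All p-values for genes come from limma, and "adjusted" means Benjamini-Hochberg adjustment over the 14489 genes of that comparison, with 0.05 as the threshold.

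Most clock genes differed more between replicate sets than between environments. In the E2 arm 9 of the 10 members differed between the 3 sets (limma F-test with the environment in the fit), and 39.3% of all genes tested did so. The exception was Per3 (limma adjusted p = 0.0523). In the IgG arm 5 of 10 differed, namely Arntl, Bhlhe40, Dbp, Nr1d1 and Cry1, against 25.2% of all genes tested. The median distance between the highest and the lowest set mean was 0.41 for the members and 0.16 for all genes tested in the E2 arm, and 0.22 for the members and 0.12 for all genes tested in the IgG arm. The same median over the 4 environment means was 0.11 for the members and 0.13 for all genes in each arm. In the E2 arm the set means of each of the 10 members lay farther apart than its environment means. In the IgG arm 3 members had it the other way: Per1 (0.03 between sets and 0.06 between environments), Per2 (0.02 and 0.06) and Clock (0.12 and 0.31). The share of all genes with either order was not counted. Their medians above were also larger between sets than between environments in the E2 arm, and about even in the IgG arm.

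In both arms these counts were lowest without the set numbered 3, a fit that by construction lacks the set seen to stand apart. In the IgG arm the count was 3 (Arntl, Bhlhe40 and Dbp) without the C arrays. Without set E2 3, 1 member differed between the remaining E2 sets, namely Per2 (limma adjusted p = 0.031, range over the alternatives run 0.000111 to 0.0348), and the count over all genes was 557 in place of 5699. Without set IgG 3, no member differed between the remaining IgG sets by limma, and the count over all genes was 12 in place of 3644. Differences between pairs of sets were compared next, a choice made after the F-tests were seen. Set E2 1 differed from E2 3 in 9 members (35.7% of all genes) and E2 2 from E2 3 in 9 (34.9% of all genes), whereas E2 1 differed from E2 2 in 1 (2.6% of all genes). Set IgG 1 differed from IgG 3 in 6 members (24.1% of all genes) and IgG 2 from IgG 3 in 5 (25.9% of all genes). The latter count was 3 without the C arrays and 2 without the 1g arrays. IgG 1 differed from IgG 2 in 0 members (0.0621% of all genes). Between IgG 1 and IgG 2, 1 member had an unadjusted p under 0.05 in limma, as did 4.67% of all genes. The number 3 did not stand for the same state in both arms: Arntl, Nr1d1, Dbp and Bhlhe40 were low in E2 3 and high in IgG 3.

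**Figure D1:**
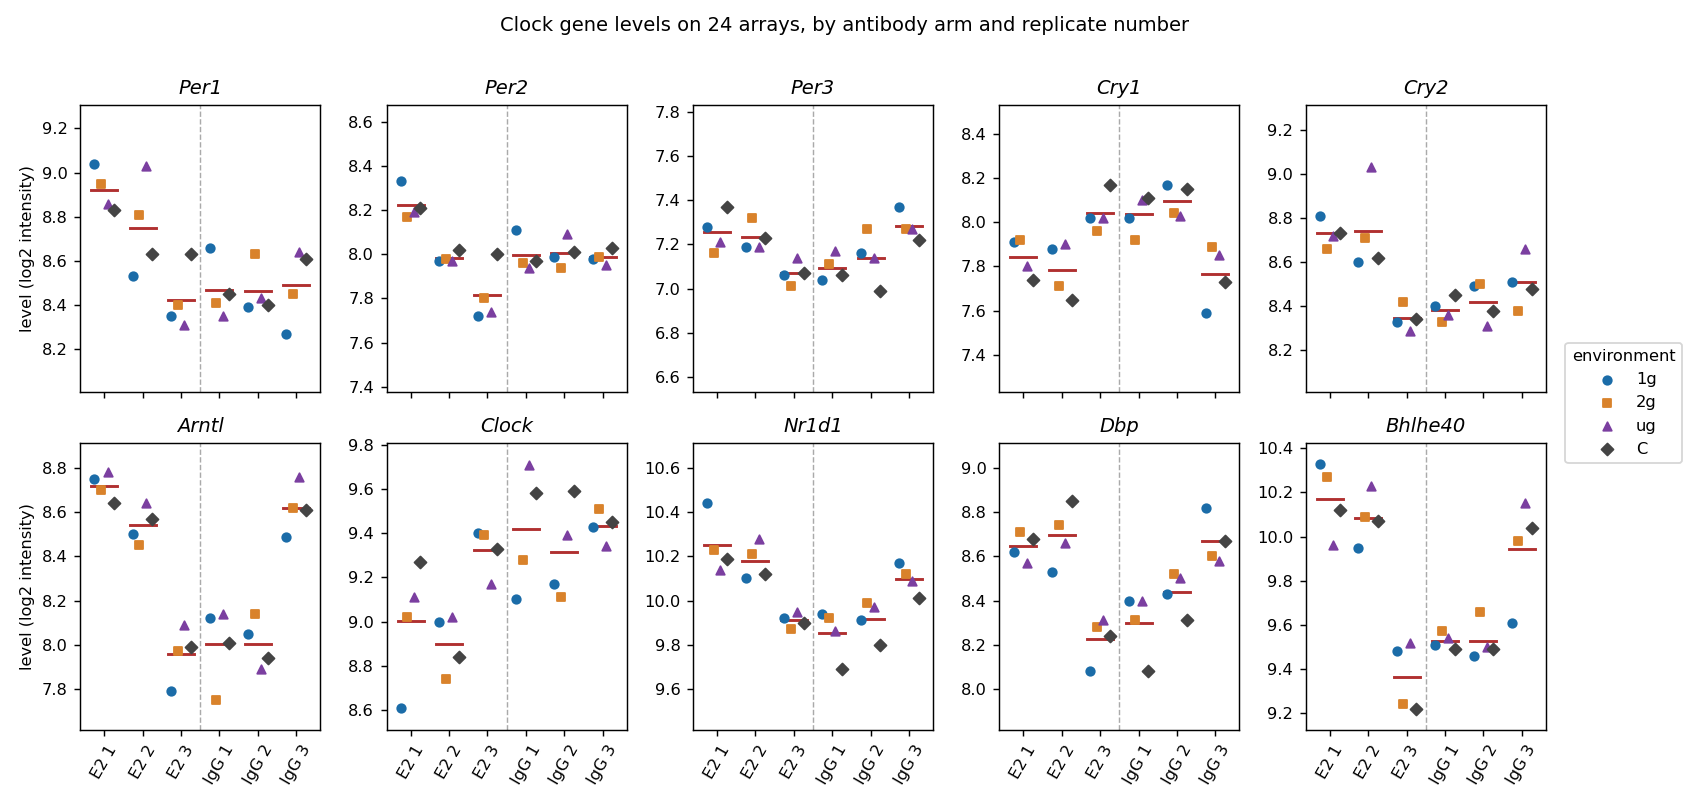
Levels (log2 intensity, vertical axes, all of the same span but with different origins) of the 10 clock genes on 24 arrays, with the 3 sets of the E2 arm left of the dashed line and those of the IgG arm right of it. Symbols mark the environment and red bars the mean of the 4 arrays of a set. Arntl lies at 8.45 or above on every array of E2 1, E2 2 and IgG 3 and at 8.14 or below on every other array.

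Arntl (probe set 10556463), the gene of the positive limb that cycles in most tissues, gave the clearest division. At 1g, 2g, ug and C it stood at 8.75, 8.70, 8.78 and 8.64 in set E2 1, at 8.50, 8.45, 8.64 and 8.57 in E2 2, and at 7.79, 7.97, 8.09 and 7.99 in E2 3. In the same order it stood at 8.12, 7.75, 8.14 and 8.01 in IgG 1, at 8.05, 8.14, 7.89 and 7.94 in IgG 2, and at 8.49, 8.62, 8.76 and 8.61 in IgG 3. Within each arm the arrays of the set numbered 3 did not overlap with those of the other sets, below them in the E2 arm and above them in the IgG arm. The share of all genes without overlap of this kind was not counted, for Arntl or for the members below. The set means were 8.72 ± 0.06, 8.54 ± 0.08 and 7.96 ± 0.12 for E2 1, 2 and 3 (SD, n = 4; adjusted p = 8.04e-07 in limma's F-test). For IgG 1, 2 and 3 they were 8.01 ± 0.18, 8.01 ± 0.11 and 8.62 ± 0.11 (SD, n = 4; adjusted p = 5.64e-06 in limma's F-test). Arntl in E2 1 was 1.69 times its level in E2 3 (95% interval 1.5 to 1.90), and in IgG 1 it was 0.652 times its level in IgG 3 (0.579 to 0.735).

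Clock (10530733), the partner of BMAL1, ran the other way in the E2 arm and showed no such division in the IgG arm. It stood at 8.61, 9.02, 9.11 and 9.27 (1g, 2g, ug and C) in E2 1, at 9.0, 8.74, 9.02 and 8.84 in E2 2, and at 9.40, 9.39, 9.17 and 9.33 in E2 3. In IgG 1 it stood at 9.10, 9.28, 9.71 and 9.58, in IgG 2 at 9.17, 9.11, 9.39 and 9.59, and in IgG 3 at 9.43, 9.51, 9.34 and 9.45. E2 3 overlapped E2 1 but not E2 2, and the 3 IgG sets overlapped each other. It was lower by a log2 difference of -0.32 ± 0.12 (SE) in E2 1 than in E2 3 and by -0.42 ± 0.12 in E2 2 than in E2 3 (limma adjusted p = 0.038 and 0.00764). The IgG sets did not differ past the threshold (limma F-test, adjusted p = 0.749), and the 95% interval for IgG 2 over IgG 3 ran from 0.778 to 1.09 times.

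The Per genes, which encode the repressors PER1 to PER3, were high where Arntl was high in the E2 arm. Per2 (10356601) stood at 8.33, 8.17, 8.19 and 8.21 (1g, 2g, ug and C) in E2 1, at 7.97, 7.98, 7.97 and 8.02 in E2 2, and at 7.72, 7.80, 7.74 and 8.0 in E2 3. All 4 arrays of E2 1 lay above the other 8 of the arm, and Per2 alone among the members differed between E2 1 and E2 2 (0.24 ± 0.06, limma adjusted p = 0.0479), a call lost under 7 of 9 alternatives, each of the 4 that leave out an environment among them. Its IgG set means were 8.0 ± 0.08, 8.01 ± 0.06 and 7.99 ± 0.04 for sets 1 to 3 (SD, n = 4), with a highest minus lowest of 0.02 (F-test, adjusted p = 0.979 in limma). Per1 (10377439) averaged 8.92 ± 0.10, 8.75 ± 0.22 and 8.42 ± 0.14 in the 3 E2 sets (SD, n = 4; adjusted p = 0.0027 in limma's F-test). Its arrays in E2 2 ran from 8.53 to 9.03 and overlapped both neighbours. Per1 in the IgG arm spanned 8.27 to 8.66 over all 12 arrays, with set means 0.03 apart at most (F-test, adjusted p = 0.982 in limma). Per3 (10518781) lay between 6.99 and 7.37 on all 24 arrays, the narrowest range of the 10, and passed the F-test in neither arm (adjusted p = 0.0523 in the E2 arm and 0.0903 in the IgG arm by limma). It was nevertheless higher in E2 1 than in E2 3 (0.19 ± 0.07, limma adjusted p = 0.0325) and lower in IgG 1 than in IgG 3 (-0.19 ± 0.07, limma adjusted p = 0.0441).

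The cryptochromes, the partners of the PER proteins in repression, parted from each other. Cry1 (10371400) was low where Arntl was high. It stood at 7.91, 7.92, 7.80 and 7.74 (1g, 2g, ug and C) in E2 1, at 7.88, 7.71, 7.90 and 7.65 in E2 2, and at 8.02, 7.96, 8.02 and 8.17 in E2 3. In IgG 1 it stood at 8.02, 7.92, 8.10 and 8.11, in IgG 2 at 8.17, 8.04, 8.03 and 8.15, and in IgG 3 at 7.59, 7.89, 7.85 and 7.73. E2 3 lay above E2 1 and E2 2, and IgG 3 below IgG 1 and IgG 2, with no overlap in either arm. The gaps were small, between 7.92 and 7.96 in the E2 arm and between 7.89 and 7.92 in the IgG arm. The F-test gave adjusted p = 0.0294 in the E2 arm and 0.00668 in the IgG arm (limma), and Cry1 was the member whose calls gave way most often, under 5 of the alternatives in the E2 arm and 3 in the IgG arm. Cry2 (10485170) went with Arntl in the E2 arm, with set means of 8.73 ± 0.06, 8.74 ± 0.20 and 8.35 ± 0.05 (SD, n = 4; adjusted p = 0.000519 in limma's F-test). Every array of E2 3 (8.29 to 8.42) lay below every array of E2 1 and E2 2 (8.60 to 9.03). In the IgG arm its set means were 8.38 ± 0.05, 8.42 ± 0.09 and 8.51 ± 0.11 (SD, n = 4), and the sets overlapped (F-test, adjusted p = 0.532 in limma).

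Nr1d1 (10390691), the repressor of Arntl, stood at 10.44, 10.23, 10.14 and 10.19 (1g, 2g, ug and C) in E2 1, at 10.10, 10.21, 10.28 and 10.12 in E2 2, and at 9.92, 9.87, 9.95 and 9.90 in E2 3. In IgG 1 it stood at 9.94, 9.92, 9.86 and 9.69, in IgG 2 at 9.91, 9.99, 9.97 and 9.80, and in IgG 3 at 10.17, 10.12, 10.09 and 10.01. It was thus high in the sets in which Arntl was high, and the set numbered 3 did not overlap with the other sets of its arm. In the IgG arm the gap was small, from 9.99 in IgG 2 to 10.01 in IgG 3. The log2 difference was 0.34 ± 0.06 for E2 1 minus E2 3 and -0.25 ± 0.06 for IgG 1 minus IgG 3 (limma adjusted p = 6.8e-05 and 0.00255).

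Dbp (10553092), an output gene driven through E-boxes, stood at 8.62, 8.71, 8.57 and 8.68 (1g, 2g, ug and C) in E2 1, at 8.53, 8.74, 8.66 and 8.85 in E2 2, and at 8.08, 8.28, 8.31 and 8.24 in E2 3. In IgG 1 it stood at 8.40, 8.31, 8.40 and 8.08, in IgG 2 at 8.43, 8.52, 8.50 and 8.31, and in IgG 3 at 8.82, 8.60, 8.58 and 8.67. Here too the sets numbered 3 stood apart from the others of their arm with no overlap, below them in the E2 arm and above them in the IgG arm. The log2 difference was 0.42 ± 0.07 for E2 1 minus E2 3 and -0.37 ± 0.07 for IgG 1 minus IgG 3 (limma adjusted p = 5.52e-05 and 0.000345).

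Bhlhe40 (10540472), the E-box repressor DEC1, had the widest range over the arrays, 1.11 on the log2 scale. It stood at 10.33, 10.27, 9.96 and 10.12 (1g, 2g, ug and C) in E2 1, at 9.95, 10.09, 10.23 and 10.07 in E2 2, and at 9.48, 9.24, 9.52 and 9.22 in E2 3. In IgG 1 it stood at 9.51, 9.57, 9.54 and 9.49, in IgG 2 at 9.46, 9.66, 9.50 and 9.49, and in IgG 3 at 9.61, 9.98, 10.15 and 10.04. E2 3 lay below E2 1 and E2 2 without overlap, while in IgG 3 the 1g array (9.61) fell within the range of IgG 2. Its level in E2 1 was 1.75 times that in E2 3 (95% interval 1.53 to 1.99), and its level in IgG 1 was 0.751 times that in IgG 3 (0.658 to 0.856).

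In each of the 4 comparisons of a set with the set numbered 3 of its arm, Arntl, Nr1d1, Dbp and Bhlhe40 passed the test in the same direction as each other. These comparisons passed between 24.1% and 35.7% of all genes. For IgG 2 against IgG 3, only 3 members passed without the C arrays and 2 without the 1g arrays, so not all of these genes passed there. Arntl did not oppose Nr1d1 and Dbp between these sets. No hour is labelled, so a difference in clock phase and a difference in level without any rhythm cannot be told apart here. The arrays measure bulk RNA, in which fewer cells of a type and less RNA per cell cannot be told apart either.

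**Figure D2:**
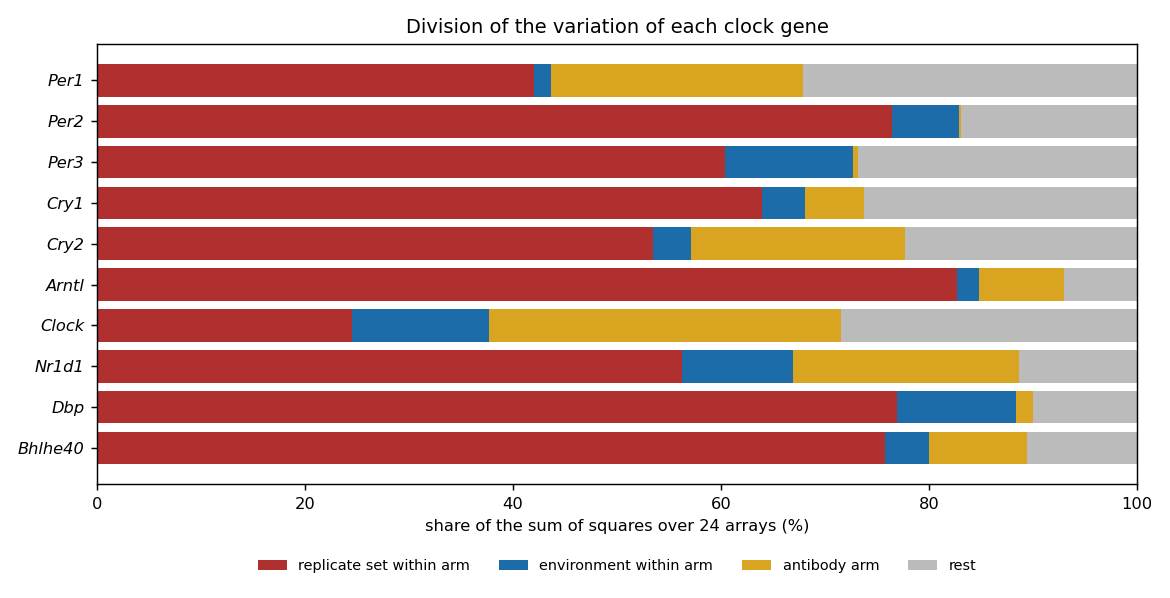
Division of the sum of squares of each clock gene over 24 arrays (horizontal axis, percent) into the replicate set within an arm (red), the environment within an arm (blue), the antibody arm (yellow) and the rest (grey). The set holds 82.7% for Arntl and 24.5% for Clock, which alone has its largest named share in the arm (33.9%).

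The replicate set held 82.7% of the variation of Arntl, 76.9% of that of Dbp, 76.5% of that of Per2 and 75.8% of that of Bhlhe40, against a median of 28.2% over all genes tested. Environment within an arm held between 1.66% (Per1) and 13.2% (Clock), against a median of 16.8% over all genes. Clock differed from the other members in that the arm held 33.9% and the set 24.5%. The shares describe these arrays and carry no test of their own.

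The comparison of each platform position with the incubator asks what the magneto-gravitational environment did to the clock genes. No member passed the test at 1g, 2g or ug against C in either arm, nor at 2g or ug against 1g (limma, 0 of 10 members and 0% of all genes in each of the 10 comparisons). At an unadjusted p under 0.05 there were 0 of 10 members in each, and between 1.12% and 8.78% of all genes. Relative to C, the changes ran in the E2 arm from -0.18 (Dbp at 1g) to 0.12 (Bhlhe40 at 1g), and in the IgG arm from -0.31 (Clock at 1g) to 0.20 (Dbp at 1g). With 3 arrays a group and sets that differ this much, the 95% intervals of the 6 comparisons with C reached from -0.65 to 0.71 in the E2 arm and from -0.73 to 0.68 in the IgG arm, with Arntl and Bhlhe40 the widest. Taking the set as a block removed the differences between sets and narrowed the intervals, to lie between -0.42 and 0.34 in the E2 arm and between -0.59 and 0.36 in the IgG arm. No member passed then either (limma). At most 3 members had an unadjusted p under 0.05, Clock, Nr1d1 and Dbp at IgG 1g. There 15.2% of all genes had an unadjusted p under 0.05, and 0.0483% passed after adjustment.

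**Figure D3:**
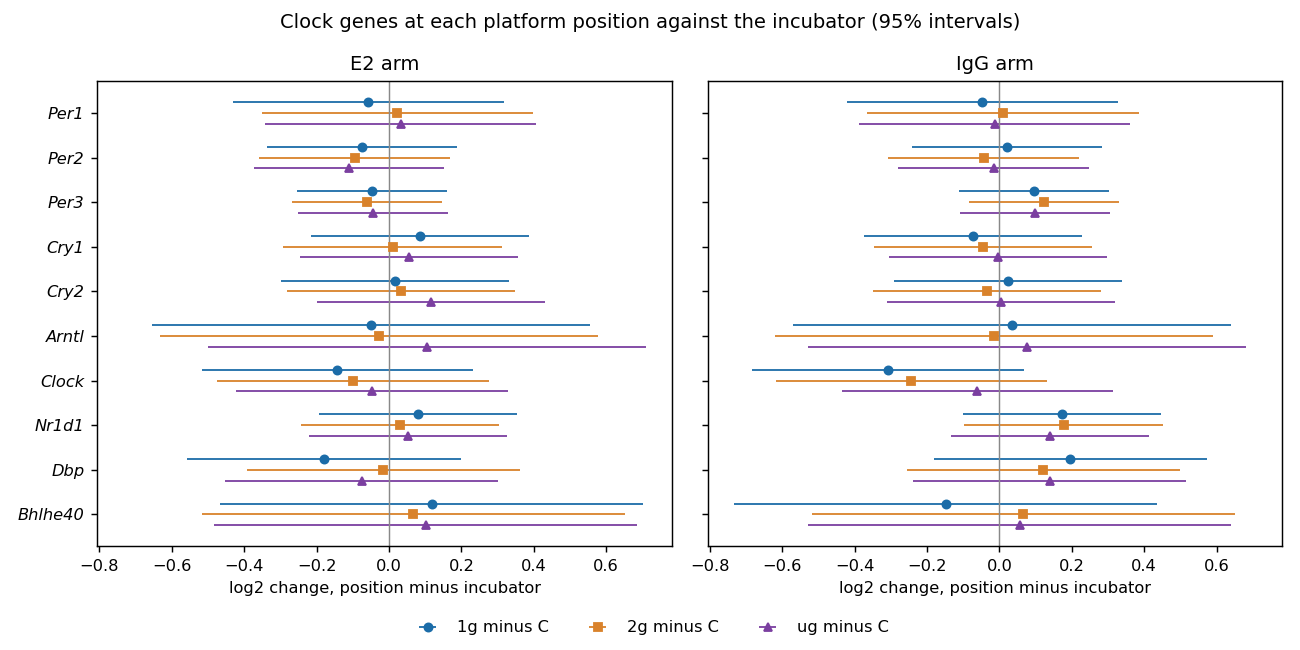
Log2 change of each clock gene at 1g, 2g and ug relative to the incubator (horizontal axis) in the E2 arm (left) and the IgG arm (right), from 8 group means without a block. Lines are 95% intervals. They are widest for Arntl and Bhlhe40, and every interval includes 0.

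Nr1d1 came closest to a platform effect. In the E2 arm it was above the incubator array of the same set on 6 of 9 platform arrays, with differences between -0.05 and 0.25. In the IgG arm it was above on all 9, by 0.08 to 0.25. The 3 positions of a set share 1 incubator array, so the 9 differences of an arm are not separate replicates. Its IgG group means were 10.01 ± 0.14 (1g), 10.01 ± 0.10 (2g) and 9.97 ± 0.12 (ug), against 9.83 ± 0.17 (C; SD, n = 3). With the set as a block, the mean of the 3 positions minus C came to 0.05 ± 0.05 for E2 cells (SE, 95% interval -0.06 to 0.17, adjusted p = 0.842 by limma) and to 0.16 ± 0.05 for IgG cells (0.05 to 0.27, adjusted p = 0.116 by limma). This test passed 0% of all genes in the E2 arm and 0.704% in the IgG arm and no member in either. Nr1d1 and Dbp had an unadjusted p under 0.05 in the IgG arm, as did 20.3% of all genes. When only the 12 IgG arrays were fitted, Nr1d1 passed in that arm (adjusted p = 0.0365, range over the alternatives 0.0365 to 0.791 by limma), in a fit that passed 782 genes in all, against 102 with all arrays fitted. Over both arms together the difference was 0.11 ± 0.04 (limma adjusted p = 0.171), where 0.669% of all genes and no member passed. In that comparison 1 member had an unadjusted p under 0.05, as did 15.6% of all genes.

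Dbp took opposite signs in the 2 arms at 1g, without passing a test. Its 1g minus C difference was -0.06, -0.32 and -0.16 in sets E2 1, 2 and 3, and 0.31, 0.12 and 0.15 in sets IgG 1, 2 and 3. The signs were mixed at the other positions, where E2 1 and E2 3 lay above C at 2g (0.03 and 0.04), E2 3 lay above it at ug (0.07), and IgG 3 lay below it at 2g and ug (-0.07 and -0.09). The difference between these effects, E2 minus IgG, was -0.37 ± 0.26 without the block and -0.37 ± 0.11 with it (limma adjusted p = 0.999 and 0.616). For the mean of the 3 positions it was -0.24 ± 0.09 (limma adjusted p = 0.346), in a comparison in which 0% of all genes and no member passed. Clock was lower than in the incubator array of its set on 7 of 9 platform arrays of the IgG arm, which again share 1 incubator array per set. Its blocked mean of the 3 positions minus C was -0.10 ± 0.11 for E2 cells and -0.20 ± 0.11 for IgG cells (limma adjusted p = 0.877 and 0.298). None of the 10 members passed the test for a difference between the arms in the response to 1g, 2g or ug (limma, 0% of all genes in each). Without the block no member had an unadjusted p under 0.05 there, and with the block 1 did, Dbp at 1g (unadjusted p = 0.00296 by limma). Of all genes, 3.61% to 5.98% had such a p without the block, and 7.75% at 1g with it.

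For Arntl and Bhlhe40, the members with the largest differences between sets, the environments lay close together. Arntl averaged 8.35 ± 0.50, 8.37 ± 0.37 and 8.50 ± 0.37 at E2 1g, 2g and ug, against 8.40 ± 0.36 at E2 C (SD, n = 3). In the IgG arm it averaged 8.22 ± 0.24, 8.17 ± 0.43 and 8.26 ± 0.45 at 1g, 2g and ug, against 8.19 ± 0.37 at C (SD, n = 3). The 8 group means of Arntl were 0.33 apart at most, less than the SD of 7 of the groups, so no order among them can be read. The blocked mean of the positions minus C was 0.01 ± 0.08 for Arntl in E2 cells and 0.03 ± 0.08 in IgG cells, with 95% intervals from -0.15 to 0.17 and from -0.13 to 0.19. For Bhlhe40 it was 0.10 ± 0.09 (-0.08 to 0.27) in E2 cells and -0.01 ± 0.09 (-0.19 to 0.17) in IgG cells.

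The comparison of Cx43(E2) with IgG in each environment asks what blocking the hemichannels did to the same genes. No member passed at 1g, 2g, ug or C, whereas 0%, 0%, 0% and 2.92% of all genes did. Clock had the smallest p in 3 of the 4 environments. It averaged 9.15 ± 0.27 in E2 cells and 9.54 ± 0.08 in IgG cells of the incubator (SD, n = 3), a log2 difference of -0.39 ± 0.18 (SE, adjusted p = 0.151 by limma). At ug the means were 9.10 ± 0.08 in E2 cells and 9.48 ± 0.20 in IgG cells (SD, n = 3), a difference of -0.38 ± 0.18 (SE, adjusted p = 0.384 by limma). These were the 2 comparisons in which a member, Clock in each, had an unadjusted p under 0.05. Of all genes, 29.9% had such a p at C and 12.9% at ug.

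With the set as the unit, 3 E2 sets against 3 IgG sets, Clock averaged 9.08 in the E2 arm and 9.39 in the IgG arm. The difference was -0.31 ± 0.11 (SE, 95% interval -0.58 to -0.04, adjusted p = 0.195 by limma), and 0% of all genes passed. Set E2 3, at 9.32 ± 0.11 (SD, n = 4), lay within the range of the IgG sets, and without it the difference was -0.43 with a limma adjusted p of 0.0292 (range over the alternatives 0.0292 to 0.524). Without E2 3, Per1 also passed, at 0.36 (limma adjusted p = 0.0433), as did 736 genes in all. Arntl differed by 0.19 (95% interval -0.37 to 0.76) and Bhlhe40 by 0.20 (-0.33 to 0.74) between the arms over all 6 sets, intervals that span changes as large as those between sets.

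Other genes of the clock were read from a list of 19, of which 15 were tested. Of the 15, 4 differed between the E2 sets, where 39.3% of all genes did, and 4 between the IgG sets, where 25.2% did (limma F-test), so the list as a whole did not exceed the background in the E2 arm and lay near it in the IgG arm. Nfil3, a repressor that competes with DBP at D-boxes, went with Arntl: its means were 9.21, 9.20 and 8.34 in E2 1, 2 and 3 and 8.64, 8.52 and 8.93 in IgG 1, 2 and 3 (limma adjusted p = 5.15e-06 and 0.0368). Bhlhe41, the paralogue of Bhlhe40, went the other way, at 7.34, 7.29 and 7.57 in E2 1, 2 and 3 and at 7.62, 7.81 and 7.37 in IgG 1, 2 and 3 (limma adjusted p = 0.00735 and 0.000356). The remaining calls were Klf10, a transcription factor under clock control, and Btrc, which marks PER for degradation, in the E2 arm (limma adjusted p = 0.00115 and 0.0058), and Csnk1e, a kinase of PER, and Arntl2, the paralogue of Arntl, in the IgG arm (limma adjusted p = 0.0183 and 0.0218). Nr1d2, the paralogue of Nr1d1, did not pass in either arm (limma adjusted p = 0.125 in the E2 arm and 0.563 in the IgG arm). No gene of this list passed in any comparison between environments or arms.

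**Figure D4:**
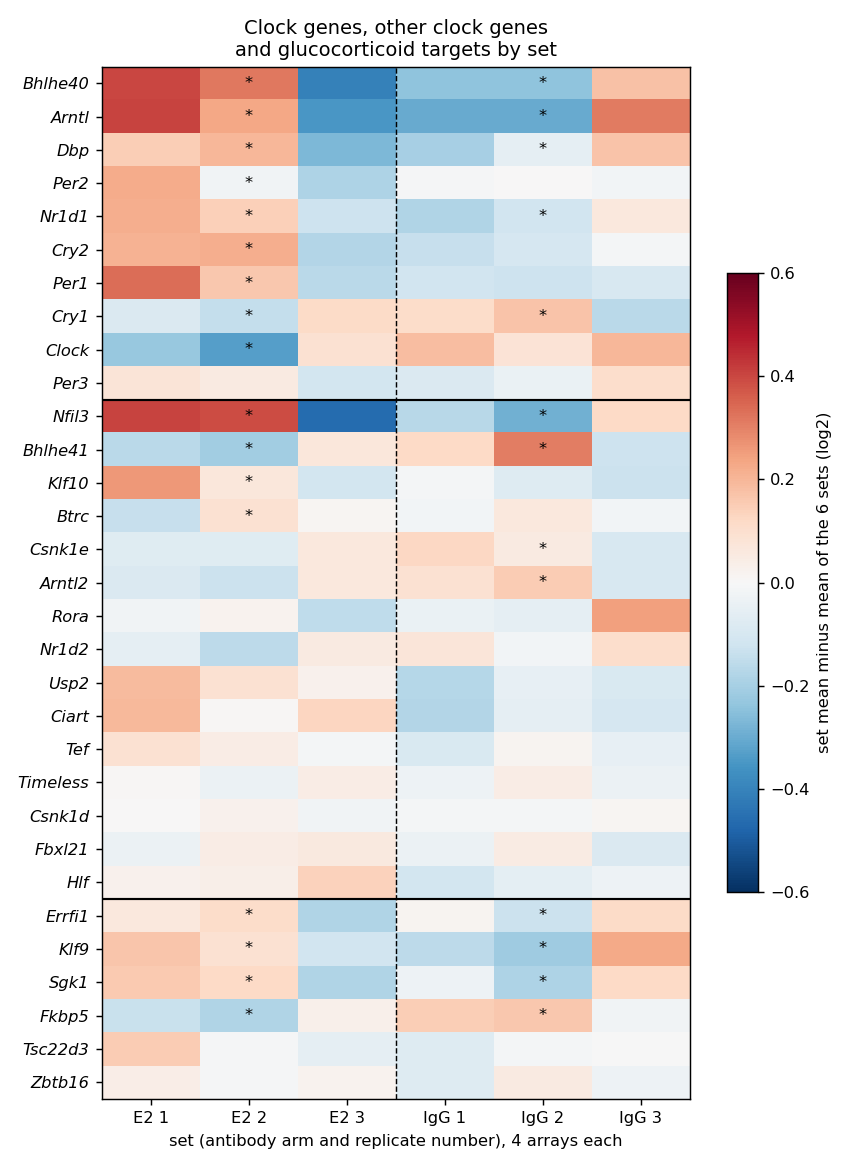
Set mean minus the mean of the 6 sets (colour, log2) for the 10 clock genes (top), 15 other clock genes (middle) and 6 glucocorticoid targets (bottom), with E2 sets left and IgG sets right of the dashed line. An asterisk in the middle column of an arm marks a gene whose sets differ in that arm (limma F-test, adjusted p under 0.05). Nfil3, Klf9 and Sgk1 share the colours of Arntl in E2 3 and IgG 3, and Cry1 and Bhlhe41 have the opposite ones in both. Fkbp5 lies close to the mean of its 6 sets in both.

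Glucocorticoids are among the signals that set the clock of cultured cells, and 6 of their targets were read as a list. Of the 6, 4 differed between sets in each arm (limma F-test), beside 39.3% of all genes in the E2 arm and 25.2% in the IgG arm. Errfi1, a brake on the EGF receptor, Sgk1, a kinase, and Klf9, a transcription factor, were low in E2 3 and high in IgG 3. Klf9 averaged 9.69, 9.61 and 9.41 in E2 1, 2 and 3 and 9.36, 9.31 and 9.75 in IgG 1, 2 and 3 (limma adjusted p = 0.00708 and 7.58e-05). Errfi1 averaged 12.64, 12.69 and 12.39 in E2 1, 2 and 3 and 12.59, 12.45 and 12.69 in IgG 1, 2 and 3 (limma adjusted p = 4.22e-07 and 1.64e-05). Sgk1 averaged 11.14, 11.10 and 10.80 in the E2 sets and 10.95, 10.80 and 11.10 in the IgG sets (limma adjusted p = 5.12e-05 and 0.000726). Fkbp5, a chaperone partner of the glucocorticoid receptor, went the other way, at 8.85, 8.81 and 9.02 in E2 1, 2 and 3 and 9.13, 9.15 and 8.96 in IgG 1, 2 and 3 (limma adjusted p = 0.0152 and 0.0388). Tsc22d3, the leucine zipper protein GILZ, did not pass (limma adjusted p = 0.0578 in the E2 arm and 0.705 in the IgG arm). Between environments, Errfi1 fell by 0.14 ± 0.03 on the log2 scale at the positions relative to C in the IgG arm (limma adjusted p = 0.0374 with the set as a block and 0.584 without it), and no other gene of the list passed.

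Some markers of the osteoblast lineage and of macrophages also differed between the sets, and those of endothelial cells did not pass. Of all genes tested, 39.3% differed between the E2 sets and 25.2% between the IgG sets. Of 4 macrophage markers, Ptprc and Adgre1, the defining ones, lay between 4.37 and 5.31 and below the 40th percentile on all arrays. Cd68, a lysosomal protein, lay between 8.10 and 8.47 in E2 1 and E2 2 and between 8.94 and 9.32 in E2 3, and between 9.0 and 9.25 in IgG 1 and IgG 2 and between 7.97 and 8.23 in IgG 3. The mean level of the macrophage markers tested (Cd68 and Csf1r) was 7.58, 7.53 and 8.07 in E2 1, 2 and 3 and 8.09, 8.07 and 7.41 in IgG 1, 2 and 3, and 1 of them differed between E2 sets and both between IgG sets (limma). Both osteoblast genes tested of 6, Alpl and Col1a1, differed between sets in each arm, with a mean level of 10.39, 10.24 and 9.68 in E2 1, 2 and 3 and of 9.87, 9.84 and 10.30 in IgG 1, 2 and 3. Sp7 and Ibsp, of the same list, lay between 4.8 and 5.99 and below the 40th percentile on all arrays. Runx2 and Bglap had no row with exactly 1 symbol. Of the 5 osteocyte markers tested of 8, 3 differed between E2 sets and 2 between IgG sets, Gja1 and Pdpn in both. Gja1 was lowest in E2 3 and highest in IgG 3, at 11.82, 11.86 and 11.42 in E2 1, 2 and 3 and 11.56, 11.50 and 11.93 in IgG 1, 2 and 3. Pdpn was highest in E2 3 and lowest in IgG 3, at 12.69, 12.56 and 12.73 in the E2 sets and 12.80, 12.74 and 12.66 in the IgG sets. Of 3 endothelial markers tested of 4, 0 differed in either arm by limma, with 0 at an unadjusted p under 0.05 and Cdh5 the closest (unadjusted p = 0.06 by limma). Pecam1 and Tek were dim, and reached the 40th percentile on 4 and 9 of the 24 arrays. Cdh5 reached it on all 24, at levels between 6.24 and 6.66, near the array medians. The lack of calls for Pecam1 and Tek in particular says little about the sets. No marker of these lists passed in a comparison between environments or arms. The part of cell makeup or culture state in the set differences of the clock genes was not tested.

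The genes whose levels followed a member most closely from array to array, once each set's mean was taken off, were sought for the 3 members with the widest range over the arrays. For Bhlhe40 they were Pi4k2a, Ddx24 and Vps37c, with Pearson's r of 0.82, 0.81 and 0.79 over 24 arrays, out of 14488 genes compared. For Arntl they were Rnaseh2a, Klhl21 and Mex3b, with r of 0.90, 0.83 and 0.81. Clock had far closer followers, Rb1cc1, Washc4 and Thoc2, with r of 0.96, 0.95 and 0.95. Between members, Clock and Nr1d1 were the most opposed within sets, with r of -0.65. The 24 arrays share their sets, environments and scaling, so these values are descriptions of the arrays and carry no p.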

How the data were processed

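The deposited values of the 24 arrays are log2 intensities, 1 per probe set, as judged from the values. MAS5 is named in the submitters' processing notes, without its role; the scaling of the arrays by the authors is not given in the sources used here. Per the labels' protocols, RNA was taken up in Trizol and labelled as biotinylated cRNA. Arms, environments and replicate numbers came from the labels. Of 35556 rows, 22641 reached the 40th percentile on 3 or more arrays and were kept. The brightest row with exactly 1 symbol stood for its gene, which gave 14489 genes.

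Testing used limma 3.58.1 under R 4.3.3 (lmFit and eBayes with a variance trend, two-sided, Benjamini-Hochberg adjustment within each comparison, threshold 0.05). Positions were compared with each other and with C, and E2 with IgG, from 8 group means (16 residual degrees of freedom). The mean of the positions against C had the set as a block (12 residual degrees of freedom). F-tests compared the sets of an arm, and E2 and IgG were also compared over the 6 set means (4 residual degrees of freedom). Whether replicate numbers pair the arrays was judged from correlations of deviations from group means. All 36 same-set pairs lay above 0.1 (0.195 to 0.812), while the 48 pairs with the same number in the other arm lay between -0.748 and -0.0141. Of the 72 pairs of the same arm with another number and another environment, 23 also lay above 0.1 (-0.675 to 0.548). Arrays of the same set thus deviated together, but some arrays of different sets of an arm did so too. The values therefore do not settle whether each number pairs arrays, and no label says so.

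The members and the lists (other clock genes, glucocorticoid targets, and markers of osteocytes, osteoblasts, macrophages and endothelial cells) were chosen with earlier results of these data known. The rule named all members, list genes past the threshold between environments or arms, the 5 genes of the clock list and of the glucocorticoid list with the smallest p between sets, markers as lists, and the 3 genes most like each of the 3 members of widest range. Arntl2, Nr1d2 and the single markers were named after their values were seen. Pairs of sets, and set means without an environment, were likewise added after the data were seen. Alternatives covered the block, normalization, filter, choice of row, variance trend, arrays fitted and each replicate left out. The code was tested on simulated data.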

Additional observations from a re-analysis of the deposited data

Results flagged for a closer look

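Dbp, the output gene of the clock, differed in direction between the arms at 1g relative to the incubator. All 3 E2 sets lay below their incubator array (-0.06, -0.32 and -0.16) and all 3 IgG sets lay above theirs (0.31, 0.12 and 0.15). The E2 effect minus the IgG effect was -0.37 on the log2 scale (95% interval -0.91 to 0.16, limma adjusted p = 0.999). It lay between -0.43 and -0.31 over the 15 alternatives. Opposite signs of all sets between the arms were sought for each member, at each position and for the mean of the positions. This result was flagged by that rule, so leaving out a replicate could not reverse its sign. With the set as a block the interval was -0.61 to -0.14 and the adjusted p 0.616 (unadjusted p = 0.00296), so the difference did not pass over all genes. The IgG 1 incubator array held the lowest Dbp value of its arm (8.08), and without IgG replicate 1 the difference was -0.32.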

How the results depend on the processing

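Between environments and arms, 20 of the 22 counts of clock genes past the threshold stayed at 0 under every alternative run. The exceptions were the mean of the positions against C in the IgG arm, with 1 member (Nr1d1) when only the arrays compared were fitted, and E2 against IgG over set means, with 2 members (Clock and Per1) without E2 replicate 3 and 0 in every other fit that left out a replicate. The counts between sets were 5 in the IgG arm, 3 without the C arrays and 0 to 5 when a replicate was left out. In the E2 arm they were 9, and 1 to 10 when a replicate was left out. The lowest counts came without replicate 3 of the arm, a fit that by construction lacks the set that stood apart. The changes of Nr1d1, Dbp and Clock that were rerun kept their sign. For Dbp at 1g the choice of the result fixed this in the fits that left out a replicate. Changes of the other members between environments were rerun only as counts. The replicate block within an arm changed no call of a member between environments. Over all genes, IgG cells at 1g against C gave 7 calls with it and 0 without it; the mean of the positions against C passed 102 genes in the IgG arm and 97 over both arms with the block, and 0 and 0 without it. Over all genes the other counts that moved by more than 1.5 times were E2 against IgG at C (423, with 0 to 1355 over the alternatives), at 1g (0, up to 773), at ug (0, up to 1) and over set means (0, up to 736), the difference between arms at 1g (0, up to 2), the mean of the positions against C in the IgG arm (102, 0 to 782) and over both arms (97, 0 to 98), sets within IgG (3644, 12 to 4215; 2375 without the C arrays) and within E2 (5699, 557 to 6084), E2 1 against E2 2 (377, 0 to 472), IgG 2 against IgG 3 (3752, 2242 to 4346) and IgG 1 against IgG 2 (9, 0 to 17). The cause of these shifts was not tested. With 3 arrays a group, changes below about the width of the intervals given could not be seen.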
